A study of Mus musculus with 2 samples.

Results

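The elements described here are the STARR-seq elements at the promoters of the nuclear genes of oxidative phosphorylation in activated mouse T-helper 2 (Th2) cells. In STARR-seq, genomic DNA fragments are cloned into the transcribed part of a reporter plasmid, so that the RNA made from a fragment reports the activity of that fragment. An element was taken when its midpoint lay no more than 1000 bp from a transcript start of those protein-coding genes (GENCODE M21) whose symbol begins with Ndufa, Ndufb, Ndufc, Ndufs, Ndufv, Sdha to Sdhd, Uqcr, Cox4 to Cox8 or Atp5. The rule names 97 genes and found 22 elements at 22 of them (22.7%, against 26.4% of all protein-coding genes), of 18431 elements in the authors' deposited table and 6052 elements at the start of any protein-coding gene (promoter elements below). No element belonged to more than 1 of the 97 genes.

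Oxidative phosphorylation is the process by which the inner mitochondrial membrane turns the energy of NADH and succinate into ATP. Complexes I (NADH dehydrogenase) and II (succinate dehydrogenase) pass electrons through complex III (cytochrome bc1) to complex IV (cytochrome c oxidase), and complex V (ATP synthase) uses the proton gradient that results. Most subunits are encoded in the nucleus by genes with CpG-rich promoters, and NRF1, the ETS factor GABP (NRF2), YY1 and the ERR nuclear receptors are the textbook regulators of these promoters. T cells increase both glycolysis and respiration when they are activated.

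The samples used here are 1 group of 2 output libraries, labelled biological replicates 1 and 2 and carrying the same donor record. The primary cells came from C57BL/6NJ mice. They were treated for 3 days with anti-CD3e (0.25 ug/mL) and anti-CD28 (1 ug/mL), for 4 days with anti-interferon-gamma (2 ug/mL) and interleukin-2, and with interleukin-4, and were then transiently transfected with the episomal plasmid pool. Both come from 1 cell state, and the table pools both libraries, so the comparisons are between elements and no spread between libraries can be given. The table holds no gene expression, so the Th2 label could not be set against Th2 markers, and it holds no read counts, so the depth behind each element is unknown.

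Each element carries the authors' signed log2 fold, read here as RNA output over input DNA. The sources used here give neither the base nor the direction of that ratio. If it ran the other way, every positive element below would be a negative one and every order by fold would be turned, and linear folds hold for base 2 alone. An element with a fold above 0 is called positive and one below 0 negative. Every element in the table passed a q-value of 0.01, so a gene without an element may have been tested without passing or not tested at all. The fold and q-value printed for any element come from the authors' deposited table.

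The sequences below come from members chosen by lowest q-value within each complex and direction, and not all of those chosen are shown. They are parts of the elements that lie upstream of the start nearest to the element and outside every annotated exon. Those of Atp5d, Ndufa6 and Sdhaf2 lie in introns of longer transcripts. All are read on the strand of the gene from the GRCm38.p6 (mm10) genome. Capitals mark matches to the consensus sites described further on (NFY, ETS, SP/KLF, NRF1, AP-1 and THAP11/ZNF143, on either strand). The first 6 come from positive elements. The Atp5d stretch, from the member with the highest fold, carried no match. The Atp5g1 stretch carried 5 NFY sites, of which 2 overlap in 1 capital run, and the Uqcr10 stretch 2 THAP11/ZNF143 sites and 1 NFY site. The Uqcrh stretch carried 1 NFY and 1 ETS site, the Cox8a stretch 1 NFY site and the Ndufa6 stretch 1 AP-1 site.
Atp5d chr10:80141201-80141296 (plus strand): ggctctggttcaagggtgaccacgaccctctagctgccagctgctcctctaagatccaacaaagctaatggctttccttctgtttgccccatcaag
Atp5g1 chr11:96075695-96075994 (minus strand): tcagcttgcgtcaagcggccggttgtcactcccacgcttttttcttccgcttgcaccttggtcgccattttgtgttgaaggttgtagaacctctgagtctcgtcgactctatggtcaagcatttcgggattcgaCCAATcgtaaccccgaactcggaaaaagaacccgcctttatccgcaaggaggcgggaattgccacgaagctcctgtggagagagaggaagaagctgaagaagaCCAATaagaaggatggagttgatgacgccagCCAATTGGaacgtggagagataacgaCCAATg
Uqcr10 chr11:4704345-4704644 (minus strand): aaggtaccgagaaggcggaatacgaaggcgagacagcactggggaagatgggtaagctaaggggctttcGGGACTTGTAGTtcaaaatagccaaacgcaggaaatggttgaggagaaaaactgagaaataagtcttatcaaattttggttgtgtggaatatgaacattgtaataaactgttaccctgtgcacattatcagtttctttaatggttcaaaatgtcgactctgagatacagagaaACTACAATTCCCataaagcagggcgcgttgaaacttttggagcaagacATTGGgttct
Uqcrh chr4:116075072-116075268 (minus strand): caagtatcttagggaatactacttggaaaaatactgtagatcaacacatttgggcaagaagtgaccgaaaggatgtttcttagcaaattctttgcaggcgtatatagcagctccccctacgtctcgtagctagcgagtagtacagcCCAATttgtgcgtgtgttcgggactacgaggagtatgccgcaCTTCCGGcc
Cox8a chr19:7217617-7217916 (minus strand): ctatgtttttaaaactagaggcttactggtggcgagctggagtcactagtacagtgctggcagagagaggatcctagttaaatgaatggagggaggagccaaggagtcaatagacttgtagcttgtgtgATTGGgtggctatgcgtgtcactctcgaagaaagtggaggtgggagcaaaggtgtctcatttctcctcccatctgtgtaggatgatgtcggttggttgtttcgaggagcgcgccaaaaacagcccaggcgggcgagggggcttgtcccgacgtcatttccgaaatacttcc
Ndufa6 chr15:82351601-82351750 (minus strand): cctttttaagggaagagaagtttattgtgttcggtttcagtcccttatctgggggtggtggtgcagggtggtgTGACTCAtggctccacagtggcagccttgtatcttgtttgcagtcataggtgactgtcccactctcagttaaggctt
The last pair comes from negative elements. The Ndufs7 stretch carried 1 SP/KLF and 1 NRF1 site, and the Sdhaf2 stretch, of 74.0% GC, 2 SP/KLF sites.
Ndufs7 chr10:80249037-80249104 (plus strand): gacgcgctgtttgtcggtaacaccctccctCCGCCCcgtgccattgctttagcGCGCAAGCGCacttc
Sdhaf2 chr19:10525601-10525900 (minus strand): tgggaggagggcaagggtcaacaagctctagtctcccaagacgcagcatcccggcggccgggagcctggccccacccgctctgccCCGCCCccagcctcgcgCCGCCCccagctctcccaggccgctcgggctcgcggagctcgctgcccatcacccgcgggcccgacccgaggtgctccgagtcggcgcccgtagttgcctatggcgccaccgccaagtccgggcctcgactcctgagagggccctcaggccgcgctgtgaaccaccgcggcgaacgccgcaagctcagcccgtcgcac

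Of the 22 elements, 14 were positive and 8 negative. Positive elements made up 63.6% (exact 95% binomial interval 40.7 to 82.8, counting error over elements only), against 34.4% of all promoter elements and 71.5% of the whole table. Negative elements made up 36.4% of the members and 65.6% of all promoter elements. The median log2 fold was 0.68 (95% order-statistic interval over elements -0.85 to 0.83) at the oxidative phosphorylation genes and -0.98 over all promoter elements. No member had a log2 fold between -0.84 and 0.63, so the sign of their median only repeats which direction had more elements. The folds were mostly modest: the log2 fold was 1 or more in size in 7 of 22 elements (31.8%), against 66.6% of all promoter elements. The median was 0.82 in the positive elements and -0.93 in the negative ones, against 1.02 and -1.28 over all promoter elements. These comparisons of a gene list with all promoter elements were not tested.

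**Figure D1:**
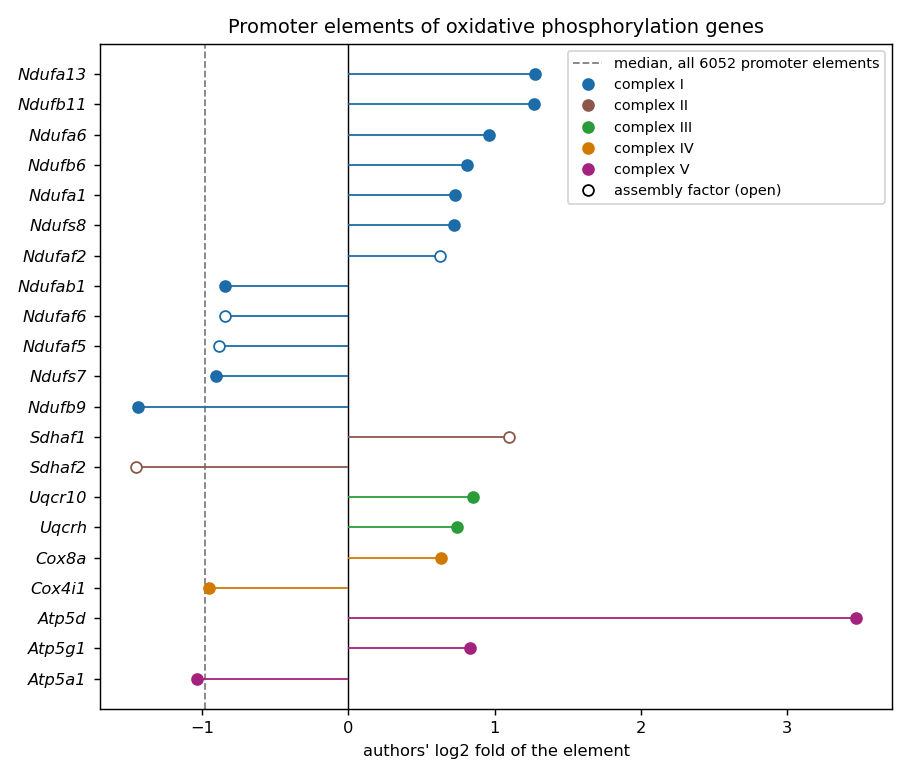
Authors' log2 fold (x axis) of 21 of the 22 elements, 1 row per gene, coloured by complex, with assembly factors as open circles and the median of all promoter elements (-0.98) as a dashed line. Atp5d stands at 3.47, and the other 20 elements drawn lie between -1.45 and 1.28.

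Genes were assigned to complexes by symbol alone: Nduf to I, Sdh to II, Uqcr to III, Cox to IV and Atp5 to V. Complex I takes electrons from NADH and has the most genes. It had elements at 13 of its 46 genes, 8 positive and 5 negative, with a median log2 fold of 0.65. Ndufa13 and Ndufb11, which encode accessory subunits, had the highest folds of the complex, at 1.28 (2.42-fold, q = 0.000669) and 1.27 (2.40-fold, q = 2.07e-05). Ndufa6, another accessory subunit, had the narrowest element, 150 bp wide, with a log2 fold of 0.96 (q = 3.33e-05). Further positive subunit elements were those of Ndufb6 (0.81), Ndufa1 (0.73) and Ndufs8 (0.72), and no error is available to order them.

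The negative elements of complex I were led by Ndufb9, an accessory subunit, at a log2 fold of -1.44 (2.71-fold lower, q = 1.00e-05). Ndufs7 stood at -0.90 and Ndufab1, the mitochondrial acyl carrier protein, at -0.84. The catalytic core holds the flavin and the iron-sulfur clusters. Of the iron-sulfur subunits in it, Ndufs8 was positive and Ndufs7 negative, so that core subunits were found in both directions. Ndufv1, which binds the flavin, had no element.

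The assembly factors of complex I build the complex and are not part of it. Of the 8 that the rule takes, 3 had an element: Ndufaf2 at 0.63, Ndufaf6 at -0.85 and Ndufaf5 at -0.88. The Ndufaf2 element had the highest q-value of all members, 0.00972.

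At complex II, which oxidizes succinate, none of the subunit genes Sdha, Sdhb, Sdhc and Sdhd had an element. Both elements belonged to assembly factors, and they had opposite signs. Sdhaf2, which attaches the flavin to Sdha, had the lowest fold of all members at -1.45 (2.74-fold lower, q = 0.000324). Sdhaf1, which helps to insert iron-sulfur clusters into Sdhb, had a log2 fold of 1.10 (2.14-fold, q = 1.54e-05). The Sdhaf1 element did not reach the gene start: its midpoint lay 819.5 bp downstream, in sequence annotated as UTR of Sdhaf1 and of the overlapping E130208F15Rik. It was the member nearest to the limit of 1000 bp, and a further positive element at Sdhaf1 (log2 1.09) lay 1757 bp from the start. The only other element within 3000 bp was a 50 bp negative one 1116.5 bp from a start of Ndufa11 (-0.46).

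At complex III, 2 of 8 genes had an element, and both were positive. Uqcr10 had a log2 fold of 0.85 (1.81-fold, q = 0.000176) and Uqcrh one of 0.74 (1.67-fold, q = 0.00204). Both encode small accessory subunits. The genes of the core proteins and of the Rieske iron-sulfur protein, Uqcrc1, Uqcrc2 and Uqcrfs1, had no element.

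Complex IV had the lowest share of genes with an element of the 5 complexes, 2 of 18 (11.1%), and these had opposite signs. Cox8a was positive at 0.63 (1.55-fold, q = 0.00525). Cox4i1, the ubiquitous form of subunit 4, was negative at -0.95 (1.93-fold lower, q = 0.00118). The muscle forms Cox6a2, Cox7a1 and Cox8b and the testis forms Cox6b2, Cox7b2 and Cox8c were among the 16 genes without an element.

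Complex V had elements at 3 of 17 genes. Atp5d, which encodes the delta subunit of the central stalk, had the highest fold of all members, with a log2 fold of 3.47 (11.1-fold, q = 3.96e-12). That was 4.58 times the fold of the next member, Ndufa13, and rank 85 among the 6052 promoter elements. With the ratio turned, it would be the lowest of all members and rank 5968. Atp5g1, a gene of the membrane ring subunit c, was positive at 0.83 (1.78-fold, q = 0.00339). Atp5a1, which encodes the catalytic-head subunit alpha, was negative at -1.04 (2.05-fold lower, q = 0.000190). Atp5b, the gene of the catalytic subunit beta, had no element.

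Across the complexes, elements were found at 28.3% of the genes of complex I, 25.0% at II and at III, 11.1% at IV and 17.6% at V. In all 22.7% of the 97 genes had an element, close to the 26.4% of all protein-coding genes. A positive element stood at 14 of the 97 genes, against 9.86% of all protein-coding genes, and a negative one at 8, against 17.5%. Positive elements were 8 of 13 at complex I, 1 of 2 at II, 2 of 2 at III, 1 of 2 at IV and 2 of 3 at V. Outside complex I these are 0 to 2 elements in each direction, too few to order the complexes, and the difference between complexes was not tested. By role, 12 of 17 subunit elements were positive (70.6%, exact interval 44.0 to 89.7) and 2 of 5 assembly factor elements (40%, 5.27 to 85.3). The intervals overlap.

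The rule sets the largest distance of a midpoint from a start, so the values that follow describe positions within that limit. Distances of members run to the nearest start of their own gene, and those of all promoter elements to the nearest start of any protein-coding gene. Of the 22, 20 (90.9%) spanned that start, including all 8 negative elements, against 79.1% of all promoter elements, and the exceptions were Ndufa6 and Sdhaf1. The midpoint lay upstream of the start in 18 elements (81.8%, against 45.6%), and within 100 bp of it in 13 (59.1%, against 45.6%). The 18 include all 6 elements, named further on, that lie nearer to a neighbour's start. On the measure used for all promoter elements these may not count as upstream, so the 2 shares are not strictly alike. The median distance between midpoint and start was 131 bp in the positive and 40 bp in the negative elements, against 115.5 bp over all promoter elements. Members were 850 bp wide in the median, 800 bp in the positive and 925 bp in the negative ones. Over all promoter elements the median width was 775 bp.

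**Figure D2:**
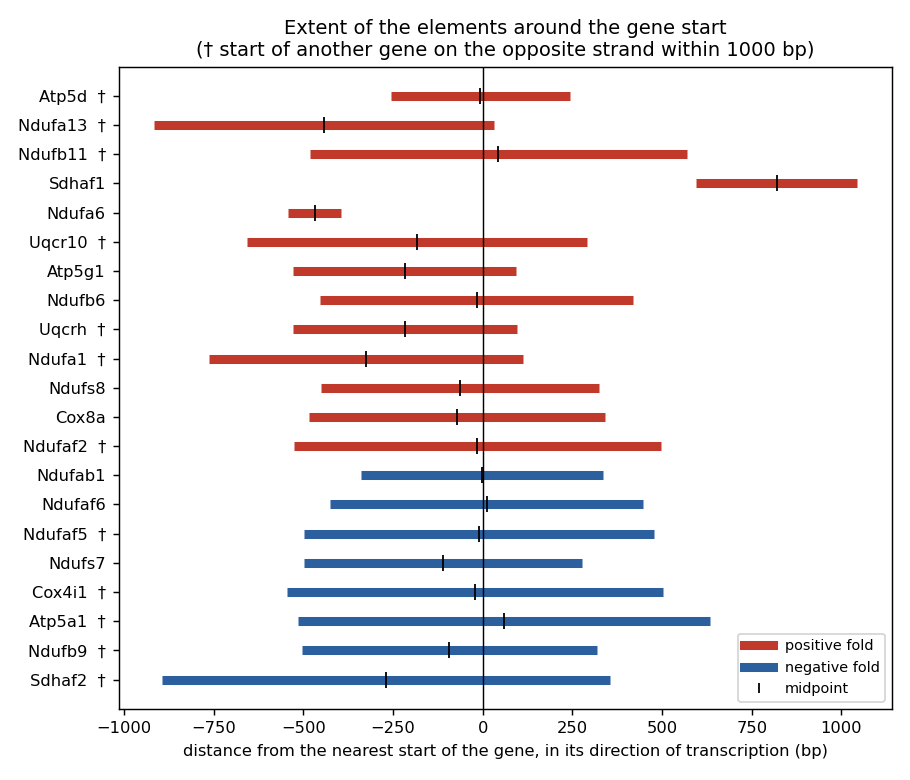
Extent of 21 of the 22 elements (bars, red for a positive and blue for a negative fold) and its midpoint (black tick) relative to the nearest annotated start of the gene, in bp along the direction of transcription. Genes are ordered by fold, a dagger marks a start of another gene on the opposite strand within 1000 bp of the midpoint, and 19 of the 21 bars cross 0.

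The start nearest to the element was not the outermost one in 7 genes, and in 3 of them it lay more than 1000 bp inside the gene. The Atp5d element (chr10:80141201-80141700) lay around the start of 1 protein-coding transcript, 6.5 bp from its midpoint. The 2 other protein-coding transcripts of Atp5d start 864.5 and 919.5 bp downstream of that midpoint, beyond the end of the element, and a non-coding transcript starts 2818.5 bp upstream of it. The Ndufa6 element (chr15:82351601-82351750) was in an intron, 468.5 bp from the start of a retained-intron transcript and 1669.5 bp or more from the starts of the protein-coding transcripts. With only the outermost start of each gene, the elements of Atp5d and Ndufa6 were among those that fell out, and 11 of 19 elements were positive. The highest fold then was that of Ndufa13.

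Many of these promoters are shared with a neighbour. In 12 of 22 elements (54.5%), a start of another protein-coding gene lay within 1000 bp of the midpoint, against 8.91% of all promoter elements, and in all 12 at least 1 such start was on the opposite strand. Of these 12 elements, 7 were positive (Atp5d with Cbarp, Ndufa13 with Tssk6 and Yjefn3, Ndufb11 with Rbm10, Uqcr10 with Zmat5, Uqcrh with Lrrc41, Ndufa1 with Rnf113a1 and Ndufaf2 with Ercc8). The other 5 were negative (Sdhaf2 with Cpsf7, Ndufb9 with Tatdn1, Atp5a1 with Haus1, Cox4i1 with Emc8 and Gm27021, and Ndufaf5 with Esf1). In 6 elements (Ndufa1, Ndufa13, Ndufb9, Sdhaf2, Uqcr10 and Uqcrh) the neighbour's start was nearer to the midpoint than the member's own. The fold of such an element belongs to the DNA and cannot be assigned to either gene. The Ndufa13 midpoint, for example, lay in the exon of Tssk6, a testis kinase gene, and the Ndufa1 midpoint in an exon of Rnf113a1.

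The sharing was also seen in the annotation of all 97 genes, whether or not they had an element. Of these, 37 (38.1%) had a start within 1000 bp of a start of another protein-coding gene on the opposite strand, against 12.3% of all protein-coding genes. The number was 21 of 46 at complex I, 4 of 8 at II, 4 of 8 at III and 7 of 17 at V. At complex IV it was 1 of 18, and among the genes assigned there by symbol Cox4i1 was that gene. Among the 22 genes with an element it was 13 (59.1%), and among the 75 without one 24 (32.0%). Over all protein-coding genes with an element it was 17.9%.

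The members were lower in GC than promoter elements in general. The median GC content was 58.8% at the oxidative phosphorylation genes and 64.9% over all promoter elements, and the ratio of observed to expected CpG was 0.748 against 0.785. Positive members had a median GC content of 57.6% and negative ones 60.5%. The gap over all promoter elements was wider, at 56.6% and 67.8%. Across the 22 elements, Spearman's rho between log2 fold and GC content was -0.40, and across the 6052 promoter elements it was -0.71. Elements share libraries and sequence composition, and these values describe the set.

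Set against promoter elements of like GC content, the excess of positive elements was smaller. Below a GC content of 50%, 91.1% of all promoter elements were positive, and so were both members there (Ndufa6 and Sdhaf1). From 50% to under 55% the share was 83.7% over all promoter elements and 2 of 3 in the members, with Ndufs7 as the negative one. The band from 55% to under 60% held 9 members, 7 of them positive, at a share of 67.01% over all promoter elements. From 60% to under 65% it was 2 of 4 members at 38.1%, and at 65% or more 1 of 4 members at 6.44%, with Ndufa13 as the positive one. If each member had the positive share of its band, 12.1 of 22 (55.2%) would be positive, where 14 were. The exact interval of the observed share, 40.7 to 82.8, holds 55.2%, but with 22 elements it is wide. The difference from the band shares was not tested.

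**Figure D3:**
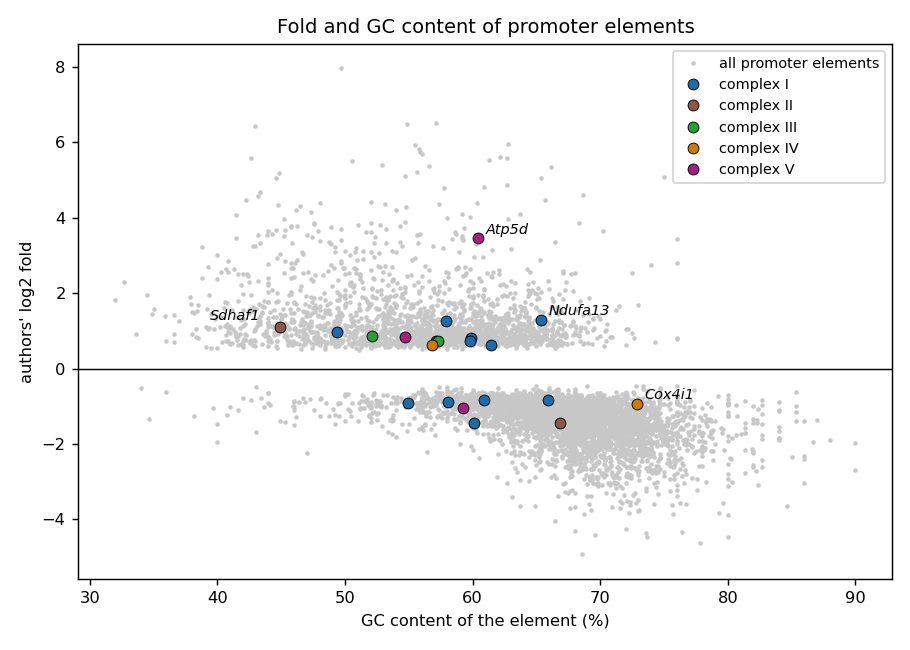
Authors' log2 fold (y axis) against GC content in percent (x axis) of all 6052 promoter elements (grey) and of 21 of the 22 members (coloured by complex). Members lie between 44.9% and 72.9% GC, Ndufa13 is positive among mostly negative elements at 65% GC or more, and Atp5d lies above the other members.

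Some members of like GC content had opposite signs. Ndufs7 had 54.97% GC, less than 10 of the 14 positive members, and was negative. Atp5a1 (59.2% GC) and Ndufaf5 (58.1%) were negative too, next to positive members of like GC content such as Ndufb11 (57.9%) and Ndufb6 (59.9%). Cox4i1 was the member richest in GC, at 72.9%, with a CpG ratio of 1.01.

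The 11 consensus sites searched, on both strands, were NRF1 (GCGCAAGCGC in Ndufs7, any base being allowed at position 6), ETS CCGGAAG, YY1 AAGATGGC, SP/KLF GGGCGG, NFY CCAAT, CRE TGACGTCA, AP-1 TGANTCA, E-box CACGTG, ERR TCAAGGTCA, THAP11/ZNF143 (ACTACAATTCCC in Uqcr10, any base being allowed at positions 7 and 8) and STAT TTCNNNGAA. Matches of different sites were counted separately where they overlapped. The search used 500 bp around each midpoint, the same length for members and all promoter elements. Separately, for all 97 genes, it used 250 bp before and 50 bp after the outermost start. Counts in members refer to the 500 bp window unless the whole element or its rest is named. That window leaves out the ends of wider elements and reaches past narrower ones. A match is a description of the letters and not a measured binding site.

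The YY1 site was in 6 of 22 members (27.3%) and in 5.85% of all promoter elements. Of these 6, 4 were positive (among them Cox8a, Ndufs8 and Uqcrh), and Atp5a1 and Ndufs7 were negative. Over all promoter elements with the site 55.4% were positive. The ETS site was in 8 members (36.4%) against 16.2%, with 4 positive (Cox8a, Ndufb6, Ndufs8 and Uqcrh) and 4 negative ones (Atp5a1, Cox4i1, Ndufb9 and Sdhaf2). NRF1 sites were in 3 members (13.6%) against 8.76%: Ndufa13, which was positive, and Ndufaf5 and Ndufs7, which were negative. The sites of these textbook regulators were thus found in members of both signs. No member had the ERR site in the window (0.479% of all promoter elements did), and Ndufaf5 had 1 in the rest of its element. Also outside the windows, the positive Ndufs8 had an NRF1 site and the positive Ndufa1 and Ndufaf2 had ETS sites.

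Some of the YY1 and NRF1 matches, chosen after their values were seen, are shown in 30 bases each, on the strand of the gene, with the site in capitals, because both kinds occurred on either side of 0. Distances run from the centre of the site to the start nearest to the element. The YY1 site lay 50 bp downstream in Cox8a and 28 bp downstream in Ndufs7, where that start is of a retained-intron transcript. In Ndufs8 it lay 291 bp upstream. Of the 3 NRF1 matches in the whole Ndufa13 element, the one nearest to the start, 626 bp upstream and in an exon of Tssk6, is shown. Cox8a, Ndufs8 and Ndufa13 were positive, and Ndufs7 negative.
Cox8a chr19:7217551-7217580 (minus strand): cggctggttcgGCCATCTTgactccctgac
Ndufs8 chr19:3913050-3913079 (minus strand): tgtacgctgtcGCCATCTTtgcagtattca
Ndufs7 chr10:80249462-80249491 (plus strand): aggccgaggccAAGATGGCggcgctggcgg
Ndufa13 chr8:69903169-69903198 (minus strand): ctcgcccttcGCGCGTGCGCcgccctggct
Ndufs7 chr10:80249080-80249109 (plus strand): ttgctttagcGCGCAAGCGCacttcacaat

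The SP/KLF site, which is a run of GC, was less frequent in the members, 12 of 22 (54.5%) against 76.9%. In the 500 bp windows it was in 7 of 14 positive and 5 of 8 negative members. Over all promoter elements it was in 52.7% of positive and 89.6% of negative ones. The positive Uqcrh and the negative Ndufaf5 and Ndufs7 had SP/KLF sites only in the rest of their elements. The Cox4i1 window held 9 SP/KLF sites, the most of any member. NFY sites were in the windows of 9 of 14 positive and 2 of 8 negative members. Over all promoter elements they were in 49.5% of positive and 32.1% of negative ones. The Ndufa6 match lay outside its 150 bp element, and the negative Ndufb9 had 1 NFY site in the rest of its element. Atp5g1, with 5 NFY sites, and Ndufb11, with 4, had the most, and both were positive.

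The single CRE palindrome in the 500 bp windows belonged to Atp5d, the member with the highest fold, and Cox4i1 had 1 in the rest of its element. CREs were in 3.21% of all promoter elements, and 62.9% of those were positive. Their positive elements had a median log2 fold of 0.99, against 3.47 at Atp5d. The site lay 61 bp upstream of the nearest start, and the same window also held 1 SP/KLF and 1 STAT site. In its surroundings, with the palindrome in capitals, the plus strand reads as follows.
Atp5d chr10:80141381-80141410 (plus strand): gggcagggtgaTGACGTCAtgaccgagagc

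Uqcr10 was the only member with THAP11/ZNF143 sites. Its window held 3 of them, at 55, 228 and 316 bp upstream of the start, and 2.40% of all promoter elements held at least 1. The nearest and the middle one are the long capital runs in the Uqcr10 stretch shown above, and lie on opposite strands. AP-1 is a dimer of FOS and JUN proteins that T cell activation induces. It had a site in 4 members (18.2% against 9.68%), the positive Ndufa6, Ndufaf2 and Uqcrh and the negative Ndufb9. In Ndufa6 it lay near the middle of the 150 bp element shown above. In the windows, STAT sites were in Atp5d and Ndufb6, and E-boxes in Atp5g1 and Ndufaf2, all of them positive. In the rest of the elements, STAT sites were in the positive Ndufa13 and the negative Ndufaf5 and Sdhaf2. E-boxes there were in the negative Ndufaf6 and Atp5a1, and an AP-1 site in the positive Atp5g1.

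At the outermost starts of all 97 genes, NRF1 sites were in 17.5% of the 300 bp windows, against 5.98% of all protein-coding genes. ETS sites were in 19.6% against 10.8%, YY1 sites in 9.28% against 2.91%, and THAP11/ZNF143 sites in 6.19% against 2.59%. SP/KLF (43.3% against 43.0%) and NFY (39.2% against 39.0%) sites were as frequent as elsewhere. The NRF1 site was at 2 of the 22 genes with an element (9.09%) and at 15 of the 75 without one (20%). Over all protein-coding genes it was at 9.20% of those with an element and 4.82% of those without one, and the difference was not tested. All protein-coding genes include many with promoters poor in CpG, and no match on base composition was made.

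**Figure D4:**
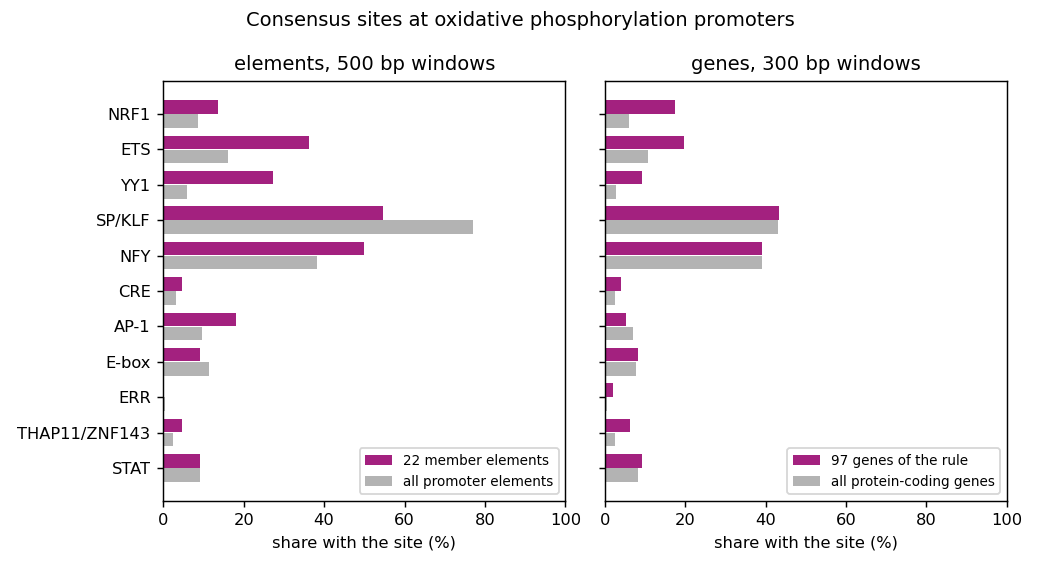
Share of windows with each consensus site (x axis, percent), for the 22 members and all promoter elements in 500 bp windows (left) and for the 97 genes and all protein-coding genes in 300 bp windows (right). YY1 stands at 27.3% against 5.85% on the left, and NRF1 at 17.5% against 5.98% on the right.

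Other genes of respiration and of mitochondrial gene expression, outside the rule, were taken as a list of 54 (cytochrome c and Cyc1, assembly factors, regulators and the citrate cycle). Of these, 19 had an element, 7 positive and 12 negative, with a median log2 fold of -0.78 and a median GC content of 63.2%. By q-value, the leading positive elements were those of Cox17, a copper chaperone of complex IV (2.62), Foxred1, a complex I assembly factor (1.31), and Ogdh of the citrate cycle (1.09). The negative ones were those of Nrf1, the transcription factor gene (-3.71), Ttc19 of complex III (-1.86) and Atpaf2, an ATP synthase assembly factor (-1.67). The elements of Cox17 (with Gm21987), Foxred1 (with Srpr), Ttc19 (with Zswim7) and Atpaf2 (with Gid4) also lay at the start of another protein-coding gene, so their folds cannot be assigned to either gene. Among the regulators, 2 of 8 elements were positive. For all 19 elements of the list, at their GC content, 6.37 positive ones correspond to the share of all promoter elements, where 7 were positive. No such value was computed for the regulators alone.

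Compared with 2 other sets of genes, of the ribosome and the proteasome, the oxidative phosphorylation genes had the lowest positive share as the ratio is read here. Cytosolic ribosomal protein genes had 17 positive elements of 24 (70.8%, median log2 fold 0.72) and proteasome genes 13 of 16 (81.2%, median 1.09), against 14 of 22. With the ratio turned, the positive shares would be 29.2% and 18.8%, against 36.4% at the oxidative phosphorylation genes. Given the GC content of each element, the shares of all promoter elements correspond to 12.7 of 24 and 7.02 of 16. The exact intervals, 48.9 to 87.4 and 54.4 to 96.0, overlap that of the oxidative phosphorylation genes, and the difference between the sets was not tested. The median GC content was 61.1% in both other sets. The proteasome set took every gene whose symbol begins with Psm. It therefore held the immunoproteasome genes Psmb8 (1.40), Psmb9 (2.23) and Psmb10 (0.84). It also held the activator gene Psme4 (-2.31) and the assembly chaperone gene Psmg2 (-1.04).

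**Figure D5:**
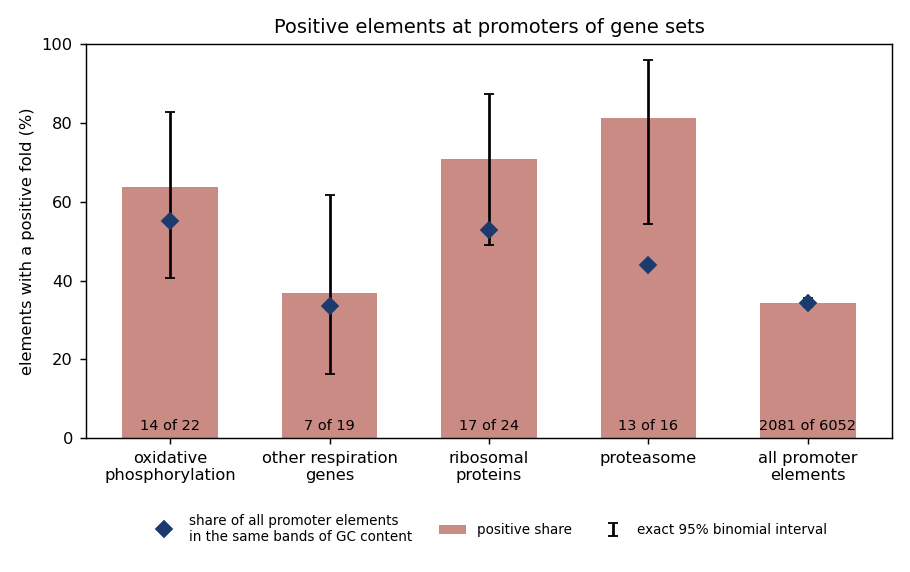
Positive share in percent (bars) with its exact 95% binomial interval over elements, for promoter elements of 4 gene sets and of all protein-coding genes, with counts at the foot of each bar. Diamonds give the share that all promoter elements have in the same bands of GC content, which is 55.2% for the oxidative phosphorylation genes.

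The repeat-masked share was 3.57% in the median and 19.5% at most, at Cox8a. In the assembled chromosomes only the Ndufb11 element had other matches of at least 90% identity over at least 50% of its width. It had 2, covering up to 60.7%, and the sources used here do not say how reads shared with them were counted.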

How the data were processed

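STARR-seq RNA was measured in 2 output libraries of activated Th2 cells. The authors made 1 element table from both libraries' mm10 alignments, per the deposited lists of files. Aligner, element caller and test were not given in the sources used here. Without a header, the deposited fold column was read as log2. The deposited p-value and the deposited q-value are on a linear scale. The deposited starts count from 1, since the width column equals end minus start plus 1. For 81.8% of elements (relative tolerance 1e-06), q-values equal p-values multiplied by 114722 and divided by rank, as an adjustment over 114722 regions would give.

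The members and lists were chosen with earlier results of these data known. Elements on chromosomes 1 to 19, X and Y (18414) were placed with every GENCODE M21 transcript of protein-coding genes. Every gene with a member is named except 1, which is counted but not reported here. Sequences were chosen by lowest q-value, up to 2 per complex and direction. Of 13 such elements, 8 are shown, each by an exon-free stretch upstream of the start, and single sites were added after the data were seen. Not shown were the positive Ndufb11 and Sdhaf1, which have no such stretch, and the negative Ndufb9, Cox4i1 and Atp5a1. Atp5a1 was left out for lying on chromosome 18, and Ndufb9 and Cox4i1 for want of a RefSeq promoter entry. Ribosomal genes exclude the Rps6k kinases, Rps19bp1 and -like paralogs. Placement and site search were tested on simulated data. Shares carry exact (Clopper-Pearson) intervals, which cover counting error over elements only. Tools were Python 3.11.15, pandas 2.3.3, scipy 1.17.1, pyfaidx 0.9.0.4 and minimap2 2.31 (asm20).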

Additional observations from a re-analysis of the deposited data

How the results depend on the processing

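Of 126 values recomputed under 9 alternative settings, 29 moved. The other 97 stayed within 1.5 times the main count or, for the median, within its interval. Most of the values are counts per complex and direction, many of them 0 to 2, which could hardly move. That of negative elements at complex III was 0 under every setting. A count cannot change sign. The median could, and it did so under none of the 9 settings. As no member had a fold between -0.84 and 0.63, its sign only repeats which direction had more elements. It is no separate sign of stability. The interval of the median (-0.85 to 0.83) spans 0 and is a loose limit. The median was 0.63 to 0.73 under the 7 alternatives that left it within the interval. A q-value below 0.001 left 11 genes, with 7 positive and 4 negative elements and a median log2 fold of 0.85. By complex these were 4 positive and 2 negative at I, 1 positive and 1 negative at II, and 1 positive at III. There were 0 in either direction at IV, and 1 positive and 1 negative at V. An absolute log2 fold of at least 1 left 7 genes, with 4 positive and 3 negative elements and a median of 1.10. These were 2 positive and 1 negative at complex I, 1 positive and 1 negative at II, and 0 at III. At IV there were 0 in either direction, and at V 1 positive and 1 negative. Both settings keep fewer elements by construction. With subunits alone, 5 negative elements were left, 3 of them at complex I, and complex II had 0 in either direction. Without elements nearer to another gene, complex II had 0 negative and complex III 0 positive elements. Complex II had 2 positive elements within 2000 bp and 0 within 500 bp, and complex V had 1 positive element at outermost starts. Counting any overlap, or protein-coding transcripts alone, moved no value past these limits. No paired analysis was possible because the table pools both libraries, and for the same reason no library could be left out. Without read counts, depth limits cannot be given.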
